A study of Xenopus tropicalis with 26 samples.

Results

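The genes described here encode the subunits of Mediator, the TBP-associated factors (TAFs) and the subunits of RNA polymerase II in Xenopus tropicalis, a diploid clawed frog. They were taken by symbol from the deposited gene table: med with a number, taf with a number, and polr2 with a single letter, each with a mean of at least 1 CPM (a count scaled to a library of fixed size) in at least 1 group. The rule found 63 of the 28778 rows, 30 of them med, 21 taf and 12 polr2 genes. All 63 were among the 12883 genes tested, and none was lost to the CPM limit. The lowest member, med11, reached a group mean of 6.89 CPM in its highest group, and the next lowest, med20, reached 12.9 CPM.

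RNA polymerase II transcribes protein-coding genes. TFIID, built from the TATA-binding protein and the TAFs, binds the core promoter and starts the assembly of the preinitiation complex, and Mediator carries signals from DNA-bound regulators to the polymerase. Mediator has a head, a middle and a tail, held together by a backbone, and a kinase module that joins and leaves. In the frog embryo the first cleavages run on RNA laid down in the egg, and the embryo's own genome is switched on around the mid-blastula stages. The symbols cover more than TFIID: taf1a, taf1b, taf1c and taf1d belong to the SL1 factor of RNA polymerase I, taf5l and taf6l are TAF-like subunits of the SAGA coactivator, taf15 encodes an RNA-binding protein, and polr2m encodes Gdown1, a protein that binds the polymerase and keeps it from responding without Mediator.

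The libraries are polyA-selected, stranded RNA-seq of whole embryos, with 2 libraries in each of 13 groups. At stage 7 and again at stage 8 the groups were embryos given the E2f1 morpholino alone (MO), the morpholino with mRNA of the deltaDBD mutant of E2f1, the morpholino with E2f1 mRNA, Cdkn1a mRNA alone, the morpholino with Cdkn1a mRNA, and wildtype embryos with no treatment. Stage 6 was sampled in wildtype embryos only. A morpholino is an antisense oligomer that blocks the translation or splicing of its target, E2f1 is a transcription factor of the cell cycle, and Cdkn1a (p21) inhibits cyclin-dependent kinases. The wildtype embryos are labelled as untreated, so the morpholino and the injection itself cannot be told apart in comparisons with them. The labels do not give the clutch of any replicate. The p-values therefore reflect only how much the libraries of a group vary, and that variation may be technical.

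Totals ran from 14071614 to 19032710 counts per library, and 0.668% to 0.711% of each library fell on the 63 genes. The e2f1 RNA was at 2720 to 3040 CPM in the 4 libraries given E2f1 mRNA and at 2020 to 2140 CPM in the 4 given deltaDBD mRNA, against 400 to 447 CPM in wildtype embryos of stages 7 and 8. This shows the injected RNA and does not check the morpholino, which acts on translation or splicing. The cdkn1a RNA was at 236 to 303 CPM in the libraries given Cdkn1a mRNA, against 1.08 to 6.09 CPM in all others. In wildtype and injected embryos together, 12 egg transcripts summed to 2670 to 2760 CPM at stage 6, 1880 to 2330 CPM at stage 7 and 1850 to 2180 CPM at stage 8. The 12 did not move together. In wildtype, velo1, vegt, mos and zar1 averaged more at stage 8 than at stage 6, and the other egg transcripts less. The summed level of 13 zygotic genes was 0.0623 to 0.203 CPM at stage 6, 4.5 to 78.8 CPM at stage 7 and 26.3 to 128 CPM at stage 8. Markers of follicle, testis and differentiated tissue summed to at most 0.489 CPM in any library. Of the listed markers, 5 of 6 for follicle, 1 of 6 for testis and 7 of 8 for differentiated tissue had a row. The value for testis therefore rests on 1 gene. In whole embryos, fewer cells of a type and less RNA per cell cannot be told apart, and after polyA selection neither can less RNA and shorter polyA tails.

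The second of the stage 8 MO libraries stood apart from its partner. The chi-square statistic of their counts was 12 per degree of freedom, against 1.81 to 2.26 in the other 12 groups. The difference followed transcript length. Among members longer than 3645 bases, 15 genes, the median log2 difference of replicate 2 minus replicate 1 was -0.34. It was 0.00 for 16 members of middle length and 0.18 for 32 members shorter than 2031 bases. For med12, a long gene, the CPM were 235 in replicate 2 and 359 in replicate 1, and for polr2a they were 240 in replicate 2 and 383 in replicate 1. In the other 12 groups the median of all long genes minus that of all short genes lay between -0.02 and 0.06. Because all groups share 1 estimate of the spread, this library also widens the errors of long genes in every comparison. It can do the same for short genes that differ between the 2 libraries, such as med6 at 0.49 and polr2f at 0.44. Many results that turn on it are given with and without it. For some counts of called members its part is given only within the ranges over left-out libraries at the end. Where a count with a library left out has no share of all genes beside it, that share is not given in this report.

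**Figure D1:**
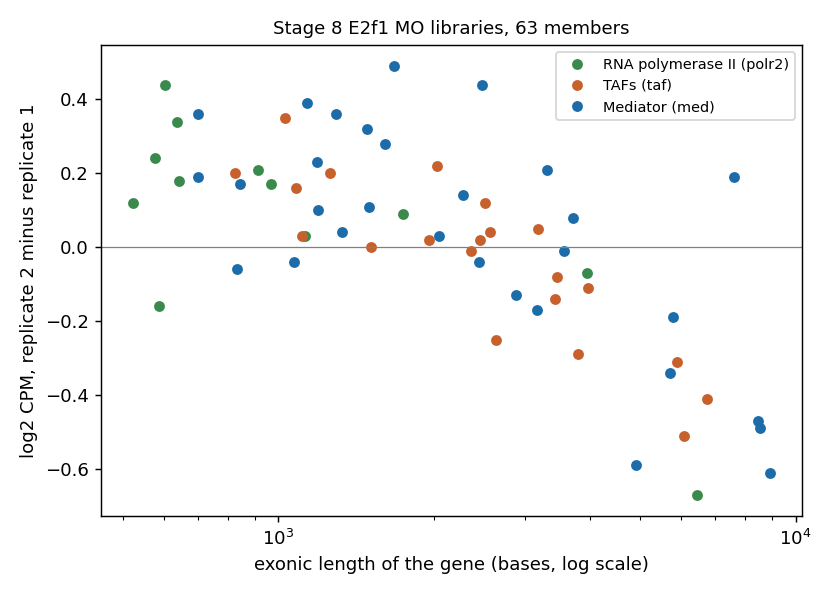
Log2 CPM of replicate 2 minus replicate 1 in stage 8 embryos given the E2f1 morpholino (vertical axis) against exonic length in bases (log scale), 1 point for each of the 63 members. Short genes lie mostly above 0 and genes longer than 3645 bases mostly below it, with medians of 0.18 and -0.34.

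The members spanned a wide range of abundance. Averaged over the 13 groups, med13, the large subunit that links the kinase module to the core, was the highest at 653 CPM, followed by taf15 at 380 CPM, polr2a, the largest polymerase subunit, at 377 CPM, and taf2, a promoter-binding TAF, at 369 CPM. The lowest were med11 at 4.44 CPM, med20 at 11.2 CPM, polr2m at 14 CPM and med6 at 14.7 CPM. Per kilobase of exon the order changed, and taf13, a histone-fold TAF, led with 228 CPM per kb, ahead of polr2d with 197, taf15 with 195 and polr2e with 154 CPM per kb. The subunits of each complex were therefore far from equal in RNA level on either scale.

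Most of the variation across groups lay between stage 6 and the later stages. The stage 6 mean was the highest of the 13 group means for 30 members and the lowest for 23. It was the highest for all 12 polr2 genes, for 12 of 21 taf genes and for 6 of 30 med genes. These counts were not taken over all tested genes, so they do not set the members apart from the table. The widest range of group means belonged to med26, 2.17 on the log2 scale or 4.49-fold, then to med6 at 1.85, med7 at 1.63 and taf4b at 1.35. The narrowest were med9 at 0.16, taf5 at 0.17, taf6l at 0.20 and med29 at 0.21.

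**Figure D2:**
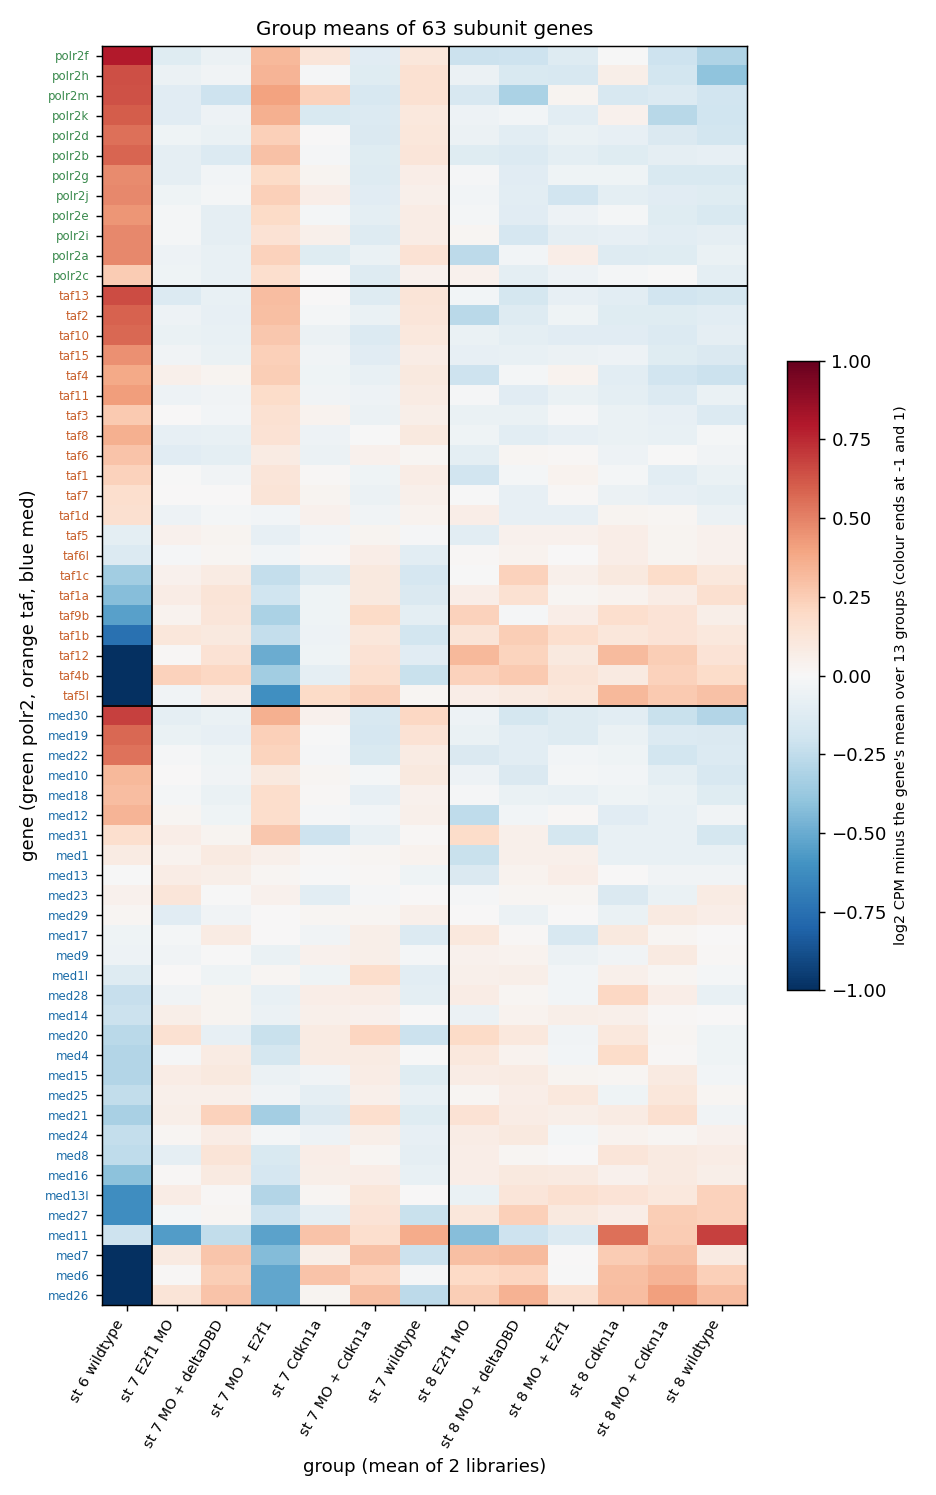
Group means of the 63 genes (rows, by family and, within a family, by the wildtype change from stage 6 to stage 8) in the 13 groups (columns, means of 2 libraries), as log2 CPM minus the gene's mean over the groups. The 12 polr2 rows are highest in the first column, stage 6 wildtype, and among stage 7 groups in the morpholino with E2f1 mRNA, whereas med26, med6, med7, taf4b and taf5l are lowest in these columns.

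All 12 polr2 genes fell in wildtype embryos between stage 6 and stage 8. Across the table, 36.4% of tested genes were higher and 32.6% were lower at stage 8 than at stage 6 (edgeR's quasi-likelihood test, Benjamini-Hochberg adjusted p under 0.05). The median log2 change of the polr2 genes was -0.64, with a range from -1.09 to -0.35, against a median of 0.06 over all tested genes. Their summed level was 1183 and 1178 CPM at stage 8, against 1865 and 1834 CPM at stage 6. With library totals in place of TMM scaling the median of all genes moved from 0.06 to 0.29, the polr2 median was -0.41, 11 of the 12 stayed called lower and none was higher.

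The largest subunits, which form the catalytic cleft, both fell. For polr2b (chromosome 1, 92026313 to 92093743 in the v10 build), the CPM were 416 and 410 at stage 6, 308 and 290 at stage 7, and 263 and 257 at stage 8. Neither stage overlapped the next, and the log2 change from stage 6 to stage 8 was -0.67 ± 0.04 (SE). For polr2a (chromosome 3, 153761380 to 153781028) the CPM were 517 and 527 at stage 6, 408 and 417 at stage 7, and 356 and 359 at stage 8. The libraries of each stage lay close together. The log2 change was -0.55 ± 0.13 (SE), and -0.55 ± 0.03 (SE) without the deviating stage 8 MO library.

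The subunits that RNA polymerases I, II and III share held both of the deepest falls of the family. For polr2f the CPM were 110 and 106 at stage 6, 69.3 and 65.7 at stage 7, and 50.6 and 51.0 at stage 8, a log2 change of -1.09 ± 0.09 (SE) over both steps. For polr2h (chromosome 5, 99527518 to 99530415) they were 53.1 and 53.0, then 39.9 and 35.4, then 25.3 and 26.1 CPM, a change of -1.05 ± 0.08 (SE). The subunits polr2k and polr2e, also shared, changed by -0.80 and -0.60. Besides polr2a and polr2b, the 5 subunits found in polymerase II alone changed by -0.74 for polr2d, -0.62 for polr2g, -0.60 for polr2j, -0.56 for polr2i and -0.35 for polr2c, the smallest fall. A row named as a copy of polr2l, the remaining shared subunit, lies outside the rule and changed by -0.73. Gdown1 (polr2m), at 12 CPM in both libraries at stage 8 against 21.6 and 21.1 CPM at stage 6, changed by -0.83 ± 0.14 (SE). Among genes that encode subunits of the other nuclear polymerases, 4 of 7 for polymerase I were higher and 2 lower, and 4 of 11 for polymerase III were higher and 5 lower. This gives these families no common direction, where 36.4% of all tested genes were higher and 32.6% lower.

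**Figure D3:**
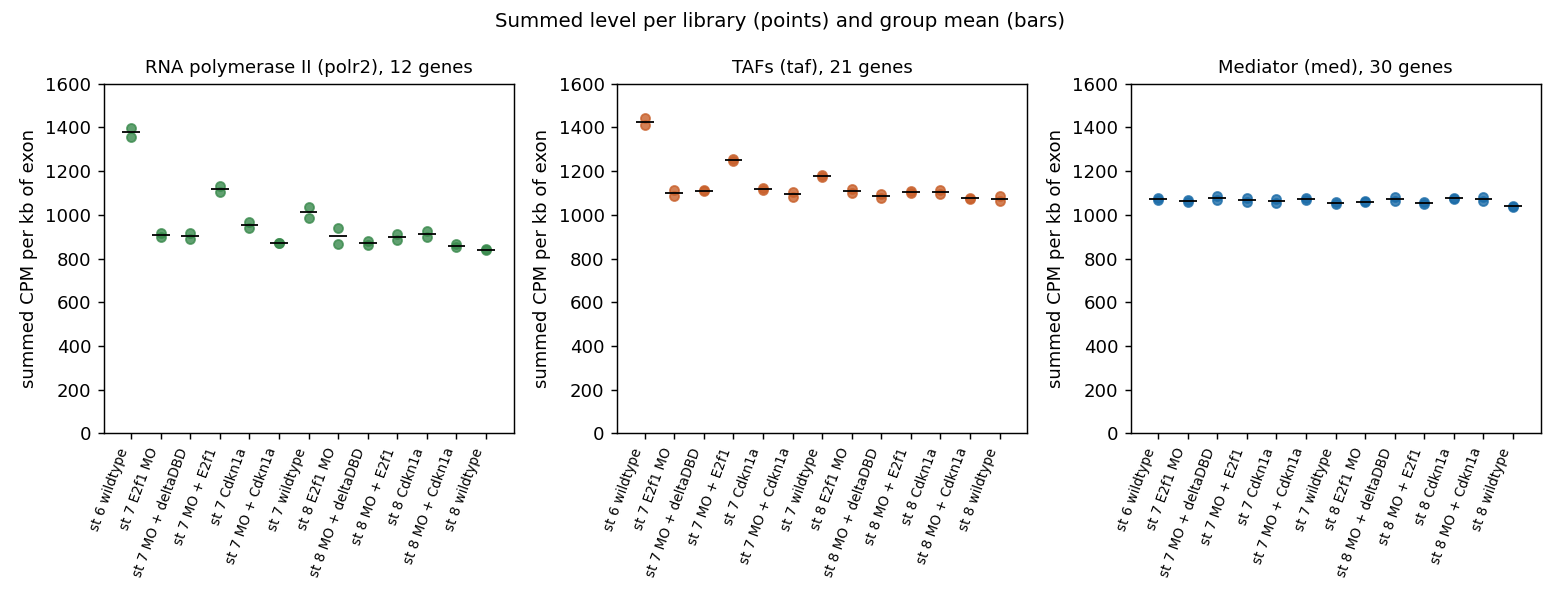
Summed CPM per kilobase of exon for the 12 polr2, 21 taf and 30 med genes in each library (points, with bars at the group means of 2), by stage and treatment. With TMM scaling the polr2 sum averages 1377 at stage 6 and 840 in stage 8 wildtype. It averages 1120 in stage 7 embryos given the morpholino with E2f1 mRNA against 907 in those given the morpholino alone. The med sum stays between 1039 and 1076 on this scale.

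All 21 taf genes were called between stage 8 and stage 6 in wildtype embryos, 9 higher and 12 lower. Of all tested genes 36.4% were called higher and 32.6% lower. The median log2 change of the taf genes was -0.27, and -0.04 with library totals. Not all 21 stayed called in other settings, with 9 higher and 8 lower with library totals and 7 and 12 with DESeq2. No shares of all genes are given for these settings. Of the 14 TFIID TAFs, 10 fell and 4 rose. The largest fall was that of taf13, at 167 and 164 CPM at stage 8 against 303 and 281 CPM at stage 6, a log2 change of -0.82 ± 0.05 (SE). It was followed by taf2, with -0.69, and taf10, with -0.67. The remaining falls, of taf4, taf11, taf3, taf8, taf6, taf1 and taf7, ran from -0.59 to -0.27, and taf15 fell by 0.60.

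The TAFs that rose included a paralog whose partner fell. For taf4b (chromosome 6, 110359371 to 110413311), the copy of taf4 known in mammals for its part in the germ line, the CPM were 45.8 and 48.5 at stage 6, 85.7 and 86.2 at stage 7, and 111 and 117 at stage 8, a log2 change of 1.27 ± 0.05 (SE). For taf4, a scaffold subunit of TFIID, they were 261 and 262, then 208 and 225, then 179 and 169 CPM, a change of -0.59 ± 0.06 (SE). Per kilobase of exon over all groups the paralogs averaged 32.4 CPM for taf4b and 34.4 CPM for taf4. The histone-fold TAF taf12 rose by 1.13 ± 0.09 (SE), with 33.5 and 34.3 CPM at stage 8 against 16 and 15 CPM at stage 6, and taf9b rose by 0.60 ± 0.12 (SE).

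The SAGA paralogs rose, and their TFIID partners moved less or fell. For taf5l the CPM were 42.4 and 45.7 at stage 8 against 16.5 and 19.3 at stage 6, a log2 change of 1.30 ± 0.10 (SE). For taf5, the TFIID subunit, they were 103 and 107 against 94.4 and 96.5 CPM, a change of 0.14 ± 0.06 (SE). The pair taf6l and taf6 changed by 0.18 and -0.32. Of the SL1 genes, taf1b rose by 0.85, taf1a by 0.58 and taf1c by 0.45, and taf1d changed by -0.22, a call that library totals turned to 0.01 with adjusted p = 0.935. The genes taf1a, taf1b, taf1c, taf5l and taf6l supply 5 of the 9 rises in the family.

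Of the 30 Mediator genes, 13 were higher at stage 8 than at stage 6, 7 were lower and 10 were not called, beside the 36.4% higher and 32.6% lower of all tested genes, and their median log2 change was 0.18. With library totals 21 were higher and 5 lower, given without the shares of all genes called with that scaling. With TMM scaling their summed level was 3092 and 3094 CPM at stage 8, against 3012 and 2977 CPM at stage 6. On that scale the sum lay close at both stages while its members moved apart. This closeness depends on the scaling, whose factors were 0.8719 and 0.8809 at stage 6 and 1.0255 and 1.0293 in stage 8 wildtype. With library totals the sum is higher at stage 8 than at stage 6, and the median log2 change of the 30 genes was 0.41.

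The middle module held the largest rise of all members. For med26 (chromosome 1, 112240540 to 112256858), the subunit that in mammals recruits elongation factors, the CPM were 24.2 and 29.2 at stage 6, 75.2 and 74.9 at stage 7, and 110 and 114 at stage 8. No 2 stages overlapped, and the log2 change was 2.07 ± 0.08 (SE) from stage 6 to stage 8. The hinge subunit med7 rose by 1.41 ± 0.12 (SE), with 26.3 and 32.2 CPM against 10.1 and 12 CPM. In the same module med10 and med31 fell by 0.48 and 0.34, med4 rose by 0.25, and med1, med1l, med9 and med21 were not called, at -0.16, 0.11, 0.06 and 0.28.

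Of the 12 head genes 4 were higher and 4 lower, shares near those of all tested genes (36.4% and 32.6%). For med6 (chromosome 8, 107132509 to 107146190), a conserved head subunit, the CPM were 16.3 and 16.7 at stage 8 against 4.53 and 5.30 at stage 6, a log2 change of 1.74 ± 0.16 (SE). It was joined by med11 at 0.89, med27 at 0.86 and med8 at 0.32. The largest fall was that of med30, a subunit of animal Mediator, with 23.7 and 23.1 CPM against 49.1 and 43.1 CPM, a change of -0.97 ± 0.09 (SE), and med19, med22 and med18 changed by -0.72, -0.68 and -0.43. The other 4 head genes, med17, med20, med28 and med29, were not called. The tail and backbone genes shifted less: 5 of 6 rose, from 0.21 for med14, the backbone, to 0.47 for med16, none fell, and med23 was at 0.05. In the kinase module med13l rose by 0.85 ± 0.11 (SE), with 185 and 182 CPM against 108 and 96.4 CPM, its paralog med13 was at -0.03 ± 0.10 (SE) with overlapping libraries, and med12 fell by 0.38 ± 0.12 (SE).

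Most of these changes were already present at stage 7. From stage 6 to stage 7, 18 members rose and 28 fell, where 28.4% of tested genes were called higher and 27.9% lower. From stage 7 to stage 8, 11 rose and 18 fell, where 19.1% were higher and 17.6% lower. No member turned round: 18 fell in both steps, 10 fell in the first only, 10 rose in both and 8 rose in the first only. The gene taf1c rose in the second only, and 16 were called in neither. These patterns were not counted over all tested genes, so whether they are particular to the members is not known. The genes that rose in both steps were med7, med16, med24, med26, med27, taf1a, taf1b, taf4b, taf5l and taf12. In the first step the largest rises were 1.5 for med6, 1.49 for med26, 1.10 for med7 and 1.03 for taf5l, and the largest falls were those of polr2f at -0.68, taf13 at -0.52, polr2k at -0.50 and polr2h at -0.49. In the second step med26 rose by 0.58, med27 by 0.45, taf4b by 0.41 and med7 by 0.30, and polr2h fell by 0.55, med30 by 0.50, polr2f by 0.41 and taf4 by 0.32. With library totals the splits were 30 higher and 24 lower for both steps together, 24 and 18 for the first and 14 and 14 for the second. The median of the taf genes in the first step turned from -0.13 to 0.03. That scaling also moved the median of all tested genes, as given above for stage 8 against stage 6. The shares of all genes called with it are not given here.

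Other genes of the initiation and elongation machinery were read from lists of known members. Of 18 genes for the general factors TFIIA, TFIIB, TFIIE, TFIIF and TFIIH, 6 were higher and 11 lower at stage 8 than at stage 6. Over all tested genes 36.4% were called higher and 32.6% lower in this comparison. Of 23 elongation factor genes 13 were higher and 9 lower, of 14 Integrator genes 8 and 3, of 6 TBP family genes 1 and 4, and of 14 SAGA genes 4 and 5. Of 16 genes for polymerase assembly and its tail 8 were higher and 5 lower, and of 3 partners of the Mediator kinase module 1 was higher and none lower. The 4 listed genes with the smallest p were cdk9, which rose by 1.61, cdk8, which sits in the kinase module, by 1.39, ints6, an Integrator subunit, by 1.26, and cdk12 by 1.16. The listed kinases were not of one direction: cdk7 of TFIIH rose by 1.71, cdk13 fell by 0.46, and cdk19, the paralog of cdk8, was not called.

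In embryos given the E2f1 morpholino most members differed from wildtype at stage 7 by small amounts. In MO embryos 7 members were higher and 11 lower than in wildtype, where 12.7% of tested genes were called higher and 12.5% lower. The rises were taf4b at 0.45, med26 at 0.39, taf1b at 0.30, med7 at 0.30, taf1c at 0.21, med15 at 0.20 and med25 at 0.12. The falls were led by med11 at -0.92, med30 at -0.30, taf13 at -0.27 and med19 at -0.21, and took in polr2b, polr2d and polr2g, taf8, taf10, taf11 and taf15. The median of the polr2 genes was -0.18, and all 12 fitted values were below 0. So were those of 3678 of the 4196 tested genes that, like these 12, fell in wildtype from stage 6 to stage 8. With library totals 11 members were higher and 6 lower, and the shares of all genes called with that scaling are not given here. Of the listed pathway genes, 1 of 18 for the general factors was higher and 7 lower, and 6 of 23 for elongation were higher and 5 lower, with cdk9 at 0.35, cdk12 at 0.34 and ccnt2, a cyclin partner of cdk9, at 0.33.

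For taf4b the CPM were 118 and 117 in MO embryos, against 85.7 and 86.2 in wildtype embryos. For med26 they were 95.3 and 102 in MO embryos, against 75.2 and 74.9 in wildtype embryos. Neither gene overlapped between the groups, and in MO embryos taf4b was at its stage 8 wildtype level of 111 and 117 CPM. For polr2b the CPM were 259 and 260 in MO embryos, against 308 and 290 in wildtype embryos, a log2 change of -0.21 ± 0.04 (SE). Shares of all genes called are not given for the counts of 8 and 10 that follow, so these do not set the members apart from the table. The count of 18 depended on the libraries used. It was 8 without replicate 2 of the stage 7 MO embryos, 10 without replicate 1 of the stage 7 wildtype, and 27 (11 higher and 16 lower) without replicate 2 of the stage 8 MO embryos, where 16.4% of all genes were called higher and 15.9% lower. Among the 16, polr2a and taf2 had edgeR's adjusted p = 5.09e-08 and 6.23e-07.

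E2f1 mRNA given with the morpholino was followed by changes in more members at stage 7, and the polr2 genes moved together. Against MO alone, 24 members were higher and 14 lower, where 22.4% of tested genes were called higher and 23% lower. The polr2 genes made up 10 of the 24, with none lower and a median log2 difference of 0.29, and the 2 not called, polr2a and polr2i, were at 0.28 and 0.16. The lack of a call for polr2a rested on the deviating library, with edgeR's adjusted p = 0.101 with it and 5.74e-14 without it. The taf genes had 10 higher and 7 lower, and the med genes had 4 higher and 7 lower. With library totals the all-gene median moved from -0.02 to -0.12 and the split became 15 higher and 21 lower. Of the polr2 genes 8 were still higher and none lower. The shares of all genes called with library totals are not given here.

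The summed polr2 level was 1532 and 1513 CPM with E2f1 mRNA, against 1244 and 1223 CPM with the morpholino alone. For polr2b the CPM were 333 and 343 with E2f1 mRNA, against 259 and 260 with the morpholino alone, a log2 difference of 0.38 ± 0.04 (SE). These groups did not overlap, and the level with E2f1 mRNA lay above the 308 and 290 CPM of stage 7 wildtype embryos. The largest rises were polr2m at 0.51, polr2k at 0.47, taf13 at 0.44 and med30 at 0.44. For taf13 the CPM were 231 and 229 with E2f1 mRNA, against 175 and 163 with the morpholino alone.

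The genes that fell with E2f1 mRNA were led by med26, taf4b, taf5l and med7. For med26 the CPM were 67.7 and 58.2 with E2f1 mRNA, against 95.3 and 102 with the morpholino alone, a log2 difference of -0.64 ± 0.07 (SE). For taf4b they were 80.2 and 77.8 against 118 and 117 CPM, a difference of -0.58 ± 0.05 (SE). Both sets of libraries were far apart. The differences for taf5l and med7 were -0.57 and -0.53, and those for med6 and taf12 were -0.52 and -0.50. The SL1 genes taf1a, taf1b and taf1c also fell, by 0.27, 0.35 and 0.28. Of the listed pathway genes, 10 of 18 for the general factors were higher and 4 lower, with gtf2a1 of TFIIA at 0.29. Over all tested genes 22.4% were called higher and 23% lower in this comparison. For elongation 7 of 23 were higher and 10 lower, and for Integrator 2 of 14 were higher and 8 lower. Of the listed genes with the smallest p, cdk9, cdk12 and cdk8 were at -0.63, -0.49 and -0.49, and cdk13 was higher, at 0.18.

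The deltaDBD mutant mRNA gave no such difference. Against MO alone no member was called at stage 7 by edgeR or by DESeq2, where 0.031% of tested genes were called. At an unadjusted p under 0.05, 2 members were higher and none lower, beside 403 and 232 of all 12883 tested genes. For med26 the CPM were 113 and 108 with deltaDBD mRNA, against 95.3 and 102 with the morpholino alone, and for polr2b they were 253 and 249 against 259 and 260. Set directly against the mutant, E2f1 mRNA gave 26 members higher and 16 lower, where 22.6% and 23.9% of tested genes were called. The polr2 genes had 11 of 12 higher, and polr2a, not called, had 441 and 434 CPM with E2f1 mRNA, against 356 and 351 CPM with deltaDBD mRNA. The largest falls were med26 at -0.81, med6 at -0.76, med7 at -0.72 and taf5l at -0.68, and the largest rises were polr2m at 0.60, polr2b at 0.43, med30 at 0.42 and polr2k at 0.41. With library totals this split was 15 higher and 21 lower, with 7 polr2 genes higher and none lower. The shares of all genes called with that scaling are not given here.

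Stage 7 embryos given the morpholino with E2f1 mRNA differed from wildtype in 10 members, 5 higher and 5 lower, where 6.82% and 6.2% of tested genes were called. The 5 higher, polr2b, taf13, taf10, taf15 and med18, differed by 0.13 to 0.18 on the log2 scale. The 5 lower were med11 at -0.91, taf5l at -0.63, med6 at -0.51, taf12 at -0.38 and med26 at -0.25. For taf5l the CPM were 25.1 and 22 with the morpholino and E2f1 mRNA, against 35.2 and 37.8 in wildtype embryos, and the groups did not overlap. The count was 4 without either library of the E2f1 mRNA group, 2 without replicate 2 of the stage 7 wildtype, and 21 without replicate 2 of the stage 8 MO embryos, where 21.7% of all genes were called. With library totals it was 1 higher and 9 lower, given without the shares of all genes called with that scaling. Nor are shares of all genes given for the counts of 4 and 2.

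The changes after E2f1 mRNA ran opposite to those of normal development. The comparison of stage 8 with stage 6 in wildtype shares no library with that of E2f1 mRNA with MO at stage 7. Of the 31 members that fell in wildtype, 24 (77.4%) were higher with E2f1 mRNA and none was lower, where 65.8% of all 4196 such genes were higher. Of the 22 that rose in wildtype, 13 (59.1%) were lower and none was higher, where 60.3% of all 4687 such genes were lower. Across the 63 members the log2 changes of the 2 comparisons had a Pearson r of -0.94 and a Spearman rho of -0.96, values that describe these genes, all measured in the same 4 libraries of each comparison, and carry no test. The members moved as the whole table did in this.

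**Figure D4:**
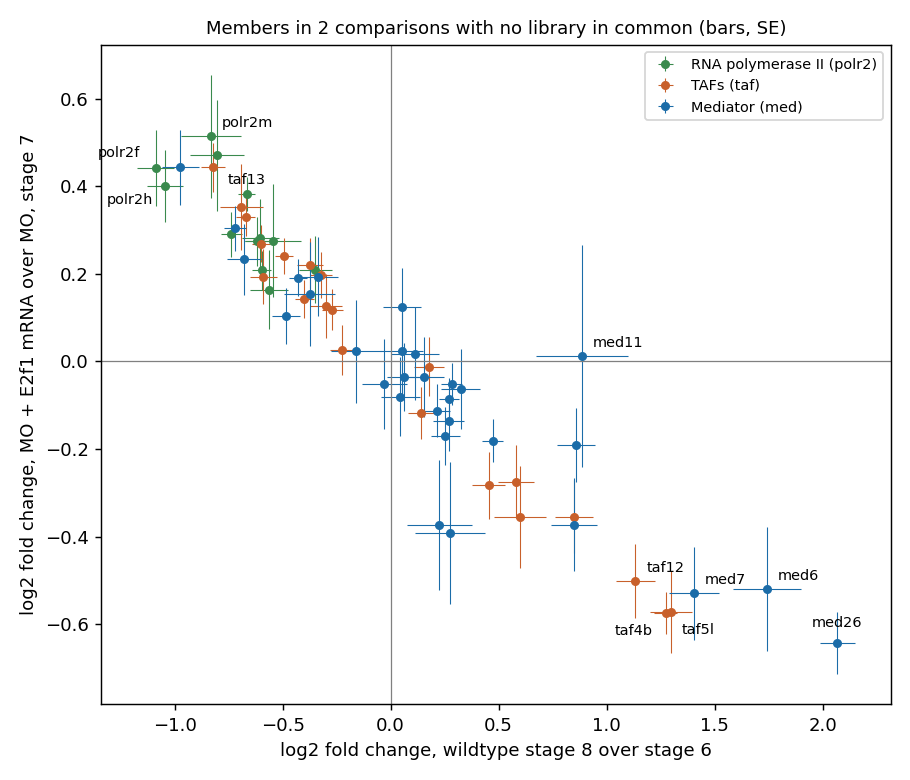
Log2 fold change of each member in wildtype embryos, stage 8 over stage 6 (horizontal), against that at stage 7 of the morpholino with E2f1 mRNA over the morpholino alone (vertical), with standard errors as bars. The polr2 genes lie together at the upper left, med26 lies at 2.07 and -0.64, and med11, at 0.89 and 0.01, lies apart from the trend of the others.

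In MO embryos members differed from wildtype the other way, in a comparison at stage 7 that shares no library with that of stages 8 and 6. Of the 22 that rose in wildtype from stage 6 to stage 8, 7 (31.8%) were higher in stage 7 MO embryos than in wildtype, against 32.6% of all such genes, and 1 (4.55%), med11, was lower, against 1.24% of all such genes. Of the 31 that fell, 10 (32.3%) were lower and none higher, against 35% of all such genes lower and 0.548% higher.

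Cdkn1a mRNA alone gave calls for 3 of the 63 members at stage 7, a share near that of all tested genes. At stage 7, with 1.93% of tested genes called higher and 2.82% lower than in wildtype, med26 was higher and taf10 and polr2b were lower. For med26 the CPM were 95.0 and 89.1 with Cdkn1a mRNA, against 75.2 and 74.9 in wildtype embryos, a log2 difference of 0.30 ± 0.07 (SE, edgeR's adjusted p = 0.0149). The differences for taf10 and polr2b were -0.17 and -0.13. Shares of all genes called are not given for the counts of 0 and 1 that follow. The 3 calls became 0 without either stage 7 wildtype library or without replicate 1 of the Cdkn1a group, 1 without replicate 2 of that group, and 13 without replicate 2 of the stage 8 MO embryos, where 13.1% of all genes were called. Added to the morpholino at stage 7, Cdkn1a mRNA gave no call against MO alone by edgeR or DESeq2, where 1.4% of genes were called. At an unadjusted p under 0.05, 5 members were higher and none lower. The share of all genes at that threshold is not given here. Without replicate 2 of the stage 8 MO embryos there were 3 calls, where 5.06% of genes were called. The interaction of morpholino and Cdkn1a at stage 7 gave no call by either tool, where 1.05% of genes were called. At an unadjusted p under 0.05, 4 members were higher and 1 lower, beside 892 and 711 of all 12883 tested genes. Without replicate 2 of the stage 8 MO embryos the interaction gave 2 calls, where 4.32% of genes were called.

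At stage 8 few members were called in the treatment comparisons, and few of all tested genes were. For MO against wildtype the shares called were 4.76% of members and 4.32% of all tested genes. MO embryos differed from wildtype in 3 members, with 1.72% of genes called higher and 2.6% lower: polr2h and med31 were higher and med11 was lower. For polr2h the CPM were 29.9 and 35.3 in MO embryos, against 25.3 and 26.1 in wildtype embryos, a log2 difference of 0.34 that lost its call without the deviating library (0.22, adjusted p = 0.258). For med31 they were 27.7 and 28.4 against 22.2 and 21.9 CPM, a difference of 0.35 that was 0.33 with adjusted p = 0.0732 without that library. Without the other stage 8 MO library, and so with the deviating one alone, 30 members and 22.9% of genes were called, and without either wildtype library 1 was. Without the deviating library 3.77% of genes were called. The call of med11 stayed, and taf5l at -0.34 and taf4 at 0.16, named here after their values were seen, were called beside it.

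Against MO alone at stage 8, E2f1 mRNA gave 1 member higher, taf4 at 0.24, and 1 lower, med31 at -0.36, where 3.14% and 2.92% of genes were called. Neither was called without the deviating library, with edgeR's adjusted p = 0.393 and 0.0653, where polr2f, chosen after its value was seen, was the 1 call at 0.33 and 3.82% of genes were called. The count was 0 without either E2f1 mRNA library and 23 with the deviating MO library alone, where 26.2% of genes were called. Against wildtype at stage 8, E2f1 mRNA with the morpholino gave taf4 higher at 0.25, with 205 and 210 CPM against 179 and 169 CPM, and med11 lower at -0.82, where 2.1% and 3.66% of genes were called. This count was 0 without either E2f1 mRNA library or without replicate 2 of the wildtype, and 8 without the deviating library, where 10.9% of genes were called. DeltaDBD mRNA against MO gave no call by edgeR or DESeq2 at stage 8 (1.03% of genes called). At an unadjusted p under 0.05, 6 members were higher and 5 lower, beside 1131 and 684 of all 12883 tested genes. The lack of a call did not hold with the deviating MO library alone. E2f1 mRNA against deltaDBD mRNA gave none by either tool (1.6% of genes called). At an unadjusted p under 0.05, 2 members were higher and 6 lower, beside 502 and 825 of all 12883 tested genes. Without the deviating library this comparison gave 2 calls, where 3.16% of genes were called.

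Cdkn1a mRNA at stage 8 was followed by higher polr2h, polr2f and med4, where 2.81% of genes were called higher and 3.41% lower than in wildtype. For polr2h the CPM were 35.5 and 35.1 with Cdkn1a mRNA, against 25.3 and 26.1 in wildtype embryos, a log2 difference of 0.46 ± 0.09 (SE, edgeR's adjusted p = 0.000311). For polr2f they were 64.3 and 60.4 against 50.6 and 51.0 CPM, a difference of 0.30, and for med4 75.1 and 78.5 against 66.7 and 65.0 CPM, a difference of 0.22. No library of these genes overlapped between the groups. The count was 1 without either wildtype library or without replicate 1 of the Cdkn1a group, and 7 without the deviating MO library, where again 10.9% of genes were called. Of 11 alternatives run, polr2h was called in all, with adjusted p by edgeR or DESeq2 from 7.18e-06 to 0.0142. The call of polr2f was lost in 7, among them library totals (adjusted p = 0.101), median-of-ratios scaling (0.05) and the replicate block (0.0561). That of med4 was lost in 6, among them library totals (0.0641) and DESeq2 (0.0722). Cdkn1a mRNA added to the morpholino gave no call against MO alone at stage 8 by edgeR or DESeq2, where 1.82% of genes were called. At an unadjusted p under 0.05, 5 members were higher and 5 lower. The share of all genes at that threshold is not given here. The lack of a call did not hold without the deviating library, nor with it as the only MO library.

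Whether an effect differed between stages or in the presence of the other treatment was tested directly. The effect of the morpholino was different at stage 8 from that at stage 7 for 15 members, 12 of them more positive and 3 more negative at stage 8, where 7.4% and 8.75% of tested genes were called. The polr2 genes had 5 of these 12 and none of the 3. For taf4b, med26 and taf1c the effect was lower at stage 8, and taf4b had a difference of -0.40 between the stages. The effect of Cdkn1a mRNA differed between stages for 4 members, 3 more positive at stage 8 (polr2h, polr2e and taf15) and 1 more negative (taf4b), where 3.66% and 2.44% of genes were called. At stage 8 the interaction of morpholino and Cdkn1a was called for 3 members, all more negative (polr2h, polr2e and med4), where 3.85% of genes were more positive and 2.48% more negative. These counts depended on which single library was left out. Their ranges are given at the end, without shares of all genes, so they do not set the members apart from the table.

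The least abundant member, med11 (chromosome 1, 101708460 to 101713929) is a small head subunit. It was the 1 member that rose in wildtype embryos from stage 6 to stage 8 and was lower in stage 7 MO embryos than in wildtype. At stage 7 its CPM were 2.62 and 3.21 in MO embryos, 4.03 and 3.19 with the morpholino and deltaDBD mRNA, 2.15 and 3.74 with the morpholino and E2f1 mRNA, 4.73 and 4.91 with the morpholino and Cdkn1a mRNA, 5.89 and 4.53 with Cdkn1a mRNA alone, and 5.08 and 5.95 in wildtype embryos. At stage 8 they were 2.68 and 3.68 in MO embryos, 3.22 and 4.18 with the morpholino and deltaDBD mRNA, 3.72 and 4.08 with the morpholino and E2f1 mRNA, 4.61 and 5.59 with the morpholino and Cdkn1a mRNA, 6.38 and 6.17 with Cdkn1a mRNA alone, and 6.45 and 7.33 in wildtype embryos. Stage 6 wildtype had 3.24 and 4.17 CPM. At both stages every library given the morpholino was below both wildtype libraries.

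The log2 difference of med11 between MO and wildtype was -0.92 ± 0.22 (SE, adjusted p = 0.0023) at stage 7 and -1.12 ± 0.22 (SE, adjusted p = 0.00114) at stage 8. With E2f1 mRNA on top of the morpholino it was still lower than in wildtype, by 0.91 at stage 7 and by 0.82 at stage 8, and against MO alone at stage 7 the difference was 0.01 ± 0.25 (SE). With Cdkn1a mRNA on top of the morpholino the differences from MO alone were 0.73 ± 0.23 (SE, adjusted p = 0.108) at stage 7 and 0.70 ± 0.23 (SE, adjusted p = 0.129) at stage 8. Without the deviating library these were called, with adjusted p = 0.0335 and 0.038. Its lowest library held 36 counts, so its errors are the widest among the named members. A gene outside the rule, polr3d of polymerase III, had the smallest p among the listed pathway genes in the stage 7 comparison of MO with wildtype, at -0.89. It averaged 14.9 CPM in MO embryos, 16.7 CPM with deltaDBD mRNA added, 10.3 CPM with E2f1 mRNA added and 31.3 CPM with Cdkn1a mRNA added, against 27.7 CPM in wildtype embryos. At stage 8 it averaged 17.2 CPM in MO embryos, 22.7 CPM with deltaDBD mRNA added, 25.3 CPM with E2f1 mRNA added and 31.4 CPM with Cdkn1a mRNA added, against 41.8 CPM in wildtype embryos. With E2f1 mRNA added it was higher than with the morpholino alone at stage 8, by 0.57 on the log2 scale (edgeR's adjusted p = 0.000687), and at stage 7 it was lower, at -0.54 (edgeR's adjusted p = 0.000742).

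**Figure D5:**
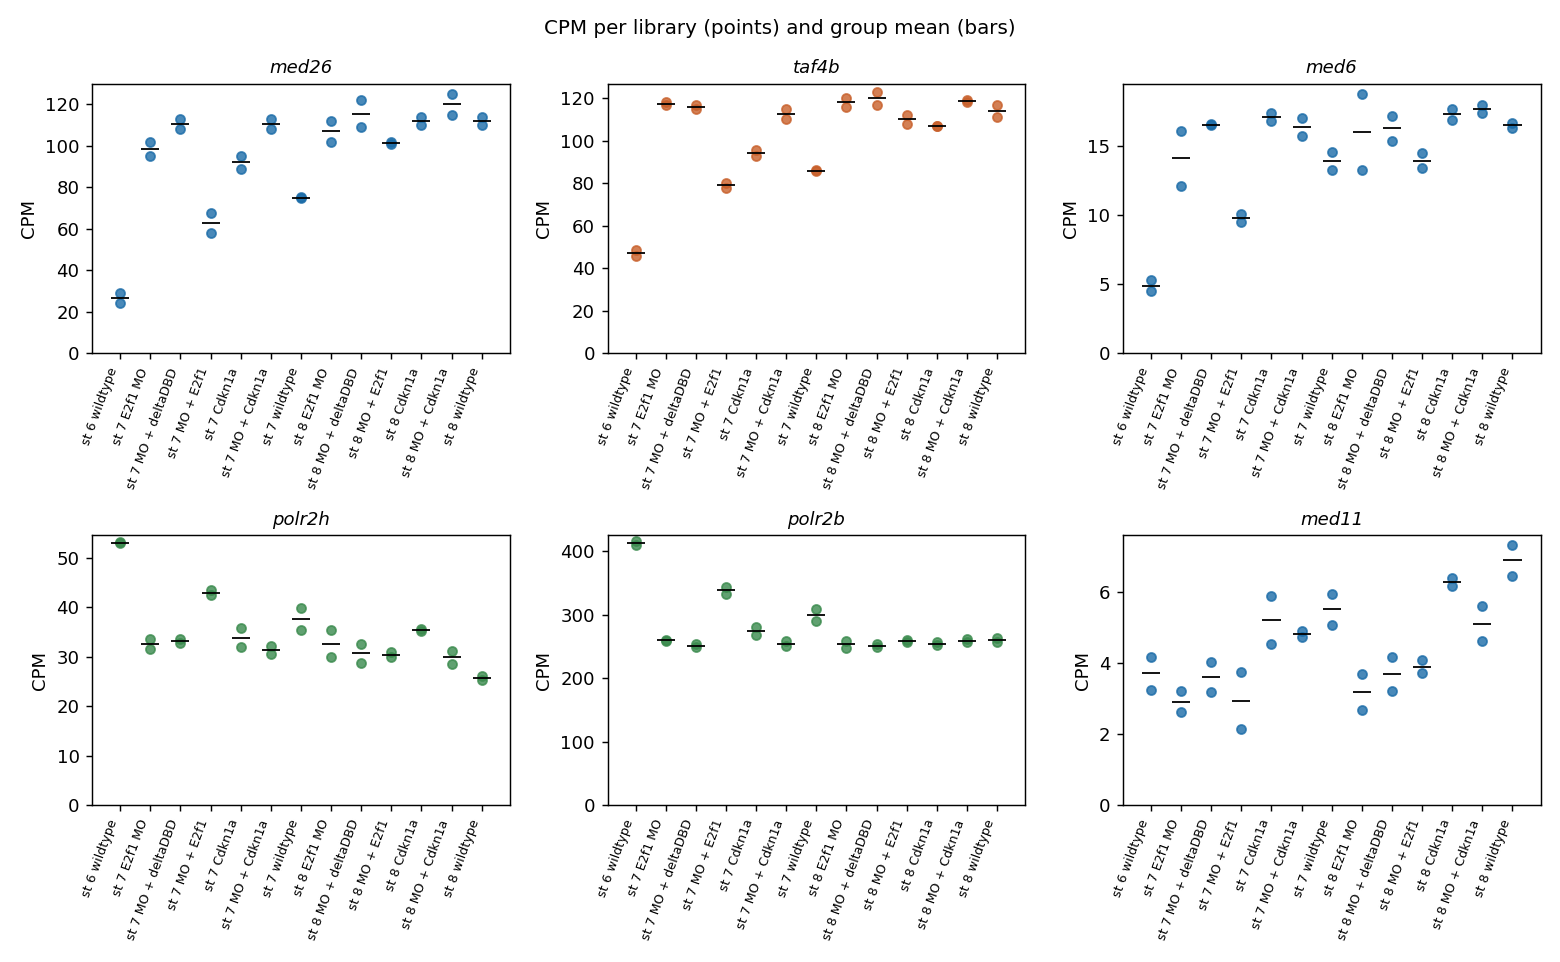
CPM of 6 members in each of the 26 libraries (points, with bars at the means of 2), by stage and treatment. In stage 7 embryos given the morpholino with E2f1 mRNA, med26, taf4b and med6 are lower and polr2h and polr2b higher than with the morpholino alone, and med11 is lower in every library given the morpholino than in either wildtype library of its stage.

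Over the 26 libraries the genes of the whole table whose log2 CPM followed med26 most closely were nfrkb, btbd17, rps6ka1, kansl2 and sec23b, with Pearson r from 0.993 to 0.994. Each was lowest at stage 6 and, among stage 7 groups, lowest with E2f1 mRNA added: nfrkb averaged 44.5 CPM there, against 78.3 CPM with the morpholino alone. These correlations are taken across libraries of the same groups and say how alike the profiles are, nothing more.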

How the data were processed

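PolyA-selected RNA-seq of whole Xenopus tropicalis embryos was analysed in 26 libraries, 2 in each of 13 groups. The authors deposited raw counts of read pairs per gene. Per the file headers they came from featureCounts 2.0.1 on a v10 annotation, reverse-stranded, with both mates mapped, chimeric pairs left out and pairs mapping to several places not counted, so reads shared by near-identical copies are missing. Per the submitters' processing notes fastp trimmed the reads, STAR 2.7.0e aligned them, and deepTools was also run. Exonic length per gene is also per the file headers, and no member shares exon bases with another row of its strand. No column belonged to another series (0 columns).

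From the counts, edgeR 4.0.16 (R 4.3.3, limma 3.58.1) fitted a quasi-likelihood model with 13 group means, TMM scaling and its default count filter, which kept 12883 genes. The biological coefficient of variation was 3.93% with 13 residual degrees of freedom. In 21 contrasts p-values were adjusted by Benjamini-Hochberg over all tested genes, and a gene was called at an adjusted p under 0.05. CPM are counts scaled to a fixed total by the TMM-scaled library size, and likeness to med26 was taken on log2 CPM with a prior count of 2. Totals of 14071614 to 19032710 counts set the precision, and med6 and med11 rest on the fewest counts, with 67 and 36 in their lowest libraries.

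The members and the lists were chosen with earlier results of these data known. Named genes were, per comparison, the 4 largest rises and falls among called members and up to 4 called against the majority, the 4 highest, lowest, widest-ranging and narrowest-ranging members, paralog pairs, the 5 genes most like the widest-ranging member, and up to 4 listed pathway genes per comparison by smallest p. The script was tested on simulated data. Other scalings, no filter, DESeq2 1.42.0, fits on the compared groups alone, a replicate block and leaving out libraries were tried. Members' sequences were not used here.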

Additional observations from a re-analysis of the deposited data

Results flagged for a closer look

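For 22 pairs of member and comparison, a difference between 2 effects was itself called by edgeR at an adjusted p under 0.05 over all tested genes. Values are log2 differences, given with and then without the deviating second library of the stage 8 MO embryos, whose part in them was measured only in this way.

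The effect of the morpholino against wildtype at stage 8 minus that at stage 7 was positive for 5 polr2 genes. It was 0.557 for polr2h (0.434 without that library), 0.293 for polr2d (0.204), 0.288 for polr2g (0.204), 0.229 for polr2e (0.216) and 0.168 for polr2b (0.203). Among taf genes it was 0.416 for taf13 (0.315), 0.198 for taf10 (0.186), 0.190 for taf11 (0.169) and 0.173 for taf15 (0.163). It was negative for taf4b at -0.403 (-0.427) and for taf1c at -0.323 (-0.282). Among med genes it was 0.533 for med30 (0.434), 0.294 for med19 (0.315), 0.172 for med18 (0.123) and -0.464 for med26 (-0.533). Of these 15, taf10, taf1c and med18 were no longer called without that library, with edgeR's adjusted p = 0.0548, 0.076 and 0.169.

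The effect of Cdkn1a mRNA against wildtype at stage 8 minus that at stage 7 was 0.617 for polr2h (0.609), 0.224 for polr2e (0.216), 0.204 for taf15 (0.195) and -0.227 for taf4b (-0.236). All 4 were still called without that library. Both stage differences use the same wildtype libraries.

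At stage 8 the effect of Cdkn1a mRNA on top of the morpholino minus its effect without the morpholino was -0.589 for polr2h (-0.463), -0.226 for polr2e (-0.209) and -0.316 for med4 (-0.168). The value for med4 was not called without that library, with edgeR's adjusted p = 0.26. For polr2h the mean CPM were 29.9 with the morpholino and Cdkn1a mRNA, 35.3 with Cdkn1a mRNA alone, 32.6 with the morpholino alone and 25.7 in wildtype embryos.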

How the results depend on the processing

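Of 271 member calls, 147 were kept under every alternative run, among them 44 of 53 for stage 8 against stage 6 in wildtype and 19 of 38 for E2f1 mRNA against MO at stage 7. Of 241 recomputed counts of called members, 168 stayed within 1.5 times and 73 did not. The cause of the moves was not tested. Library totals shift the whole table, and the member splits given with them have no shares of all genes beside them. Nor do the other counts in this section. With library totals, taf1d turned to 0.006 (stage 8 against 6) and 0.035 (stage 7 against 6) and taf7 to 0.038 (stage 7 against 6), and the counts became 1 and 1 for Cdkn1a against wildtype at stages 7 and 8 and 2 for its change between stages. With no count filter they became 1 and 5 for Cdkn1a added to MO at stages 7 and 8, 1 and 8 for the interaction, and at stage 8 7 for MO against wildtype, 10 for E2f1 mRNA and 7 for deltaDBD mRNA against MO, and 5 for Cdkn1a against wildtype. Fits on the compared groups alone gave at stage 7 28 for MO, 23 for E2f1 mRNA and 12 for Cdkn1a against wildtype, 4 for Cdkn1a added to MO and 1 for the interaction. At stage 8 they gave 0, 8 and 5 for the same comparisons with wildtype, 0 for E2f1 mRNA against MO, 4 against deltaDBD mRNA and 0 for the interaction. For the change between stages they gave 3 for MO and 14 for Cdkn1a, where DESeq2 gave 1.

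Leaving out 1 library at a time, the second stage 8 MO library included in an alternative added after seeing the data, gave these ranges. In wildtype they were 51 to 54 for stage 8 against 6, 37 to 48 for 7 against 6 and 20 to 38 for 8 against 7. At stages 7 and 8 they were 8 to 27 and 1 to 30 for MO against wildtype, 26 to 47 and 0 to 23 for E2f1 mRNA against MO, 32 to 50 and 0 to 2 against deltaDBD mRNA, 2 to 21 and 0 to 8 against wildtype, 0 to 0 and 0 to 24 for deltaDBD mRNA against MO, 0 to 13 and 1 to 7 for Cdkn1a against wildtype, 0 to 3 and 0 to 18 for Cdkn1a added to MO, and 0 to 2 and 1 to 26 for the interaction. The changes between stages ranged from 7 to 32 for MO and from 1 to 15 for Cdkn1a. Where 1 library was left in a group, it is assumed to vary like the other groups.

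Correlations of same-numbered libraries over 78 pairs of groups ran from -0.07 to 0.058, none above 0.1. The main fit therefore did not pair them. With 2 libraries per group and no clutch in the labels, these values cannot tell whether same-numbered libraries share a clutch or batch. With the replicate block no count moved beyond 1.5 times, with 53 against 53 and 39 against 38 calls for the comparisons named first, and 269 of 271 member calls stayed. Depth limits med11 and med6 most.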
